A study of Mus musculus with 16 samples.

Results

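The unfolded protein response and the amino acid response were followed in 40 genes, out of 18193 genes named by the arrays: Atf4, its upstream kinase and its targets, the sensors of the endoplasmic reticulum (ER) and the chaperones, disulfide isomerases and degradation factors of that compartment. The genes were chosen for their known place in the pathway, with earlier results of these data known. For each, the probe set naming that gene alone was used, and where there were several, the one brightest on average across the 16 arrays.

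Unfolded proteins in the ER activate the sensors Perk (Eif2ak3), Ire1 (Ern1) and Atf6. Perk and the related kinases that sense amino acid shortage phosphorylate eIF2alpha, which lowers general translation but favours translation of Atf4, and Atf4 then drives genes for amino acid synthesis and uptake together with Ddit3 and Trib3. Ern1 splices Xbp1 mRNA, and spliced Xbp1 and cleaved Atf6 drive ER chaperones and the ER-associated degradation machinery, which returns misfolded proteins to the cytosol. Blocking protein synthesis is a different stress, since it lowers the load of new proteins on the ER.

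Expression was measured on 16 Affymetrix mouse arrays with RNA of EB5 embryonic stem cells (ESC), a mouse line, and of mesodermal cells made from it. The EB5 NERT line (12 arrays) carries the intracellular domain of Notch1 fused to a hormone-binding domain that is switched on by 4-hydroxy-tamoxifen (OHT), and the EB5 control line (4 arrays) carries the empty pCAG vector. NERT Mesoderm was kept on Collagen IV to day 4 and held with OHT plus cycloheximide (CHX, a blocker of protein synthesis), with CHX, with OHT or with neither, on 2 arrays each. The other conditions had 1 array each: control Mesoderm, NERT ESC in serum-free ectodermal medium (ESCe), NERT ESC in mesodermal medium (ESCm) and control ESCm, each with and without OHT. OHT was given at 1 µM and CHX at 50 µg/ml, both for 4 h. The ESC were in ectodermal or mesodermal medium for 4 h only. The effect of CHX was therefore measured only in NERT cells and only in mesoderm, and the arrays without OHT carried the same fusion protein in its uninduced state. The replicates are not stated to be separate cultures, so the p-values measure only how far these arrays differed, and that difference may be technical. Values are intensities on a linear scale, changes are differences of log2(intensity + 25), which understate changes of dim genes, and a gene was called at an adjusted p under 0.05 over all probe sets of the fit.

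Most population markers of NERT cells were where the labels place them, with smaller shifts of the sums in the control line. The summed level of 6 pluripotency genes (Pou5f1, Nanog, Zfp42, Sox2, Klf4, Esrrb) was 8106 to 8570 on the 4 NERT Mesoderm arrays without CHX, against 17260 to 17290 on the 2 NERT ESCm arrays. That of 6 early mesoderm genes (Mixl1, Eomes, Mesp1, Kdr, Pdgfra, Fgf8) was 2675 to 3434, against 561 to 584. On the 2 control Mesoderm arrays the pluripotency sum was 13540 to 13720, against 18110 to 18360 in control ESCm. The mesoderm sum was 1348 to 1399 there, against 671 to 760. Without OHT, Pdgfra and Kdr were lower in control Mesoderm than in control ESCm. In NERT cells Zfp42, Nanog, Sox2, Klf4 and Esrrb were called lower in Mesoderm than in ESC and Mixl1, Eomes, Pdgfra and Fgf8 higher, while Pou5f1, Mesp1 and Kdr were not called. With CHX the mesoderm sum was 911 to 1206, and 5 of the 6 mesoderm genes fell without OHT (all but Kdr) and 4 with OHT (Mixl1, Eomes, Mesp1, Fgf8). Among 9 endoderm genes the sum was 535 to 736 with CHX, against 191 to 366 without it. Cubn and Sox17 rose in both CHX comparisons, Amn passed the test without OHT, Foxa2 and Gata6 passed it with OHT, and Gata4, Afp, Ttr and Apoa1 were too dim to be tested. Of 4 neuroectoderm genes Sox1 and Pax6 rose with CHX, while Nes and Tubb3 were not called. Sox2 and Klf4 rose in both comparisons, and with OHT Zfp42 rose and Pou5f1 fell. Of 5 blood and endothelial genes Tal1 and Gata1 were not called, and Hbb-bh1, Cdh5 and Tie1 were too dim to be tested. The summed level of the Notch targets Hes5, Hey1, Nrarp and Lfng was 7128 and 7611 on the NERT Mesoderm arrays with OHT, against 684 and 866 without it. The part of these marker shifts in the results for the stress genes was not tested, and in bulk RNA fewer cells of a type and less RNA per cell cannot be told apart.

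**Figure D1:**
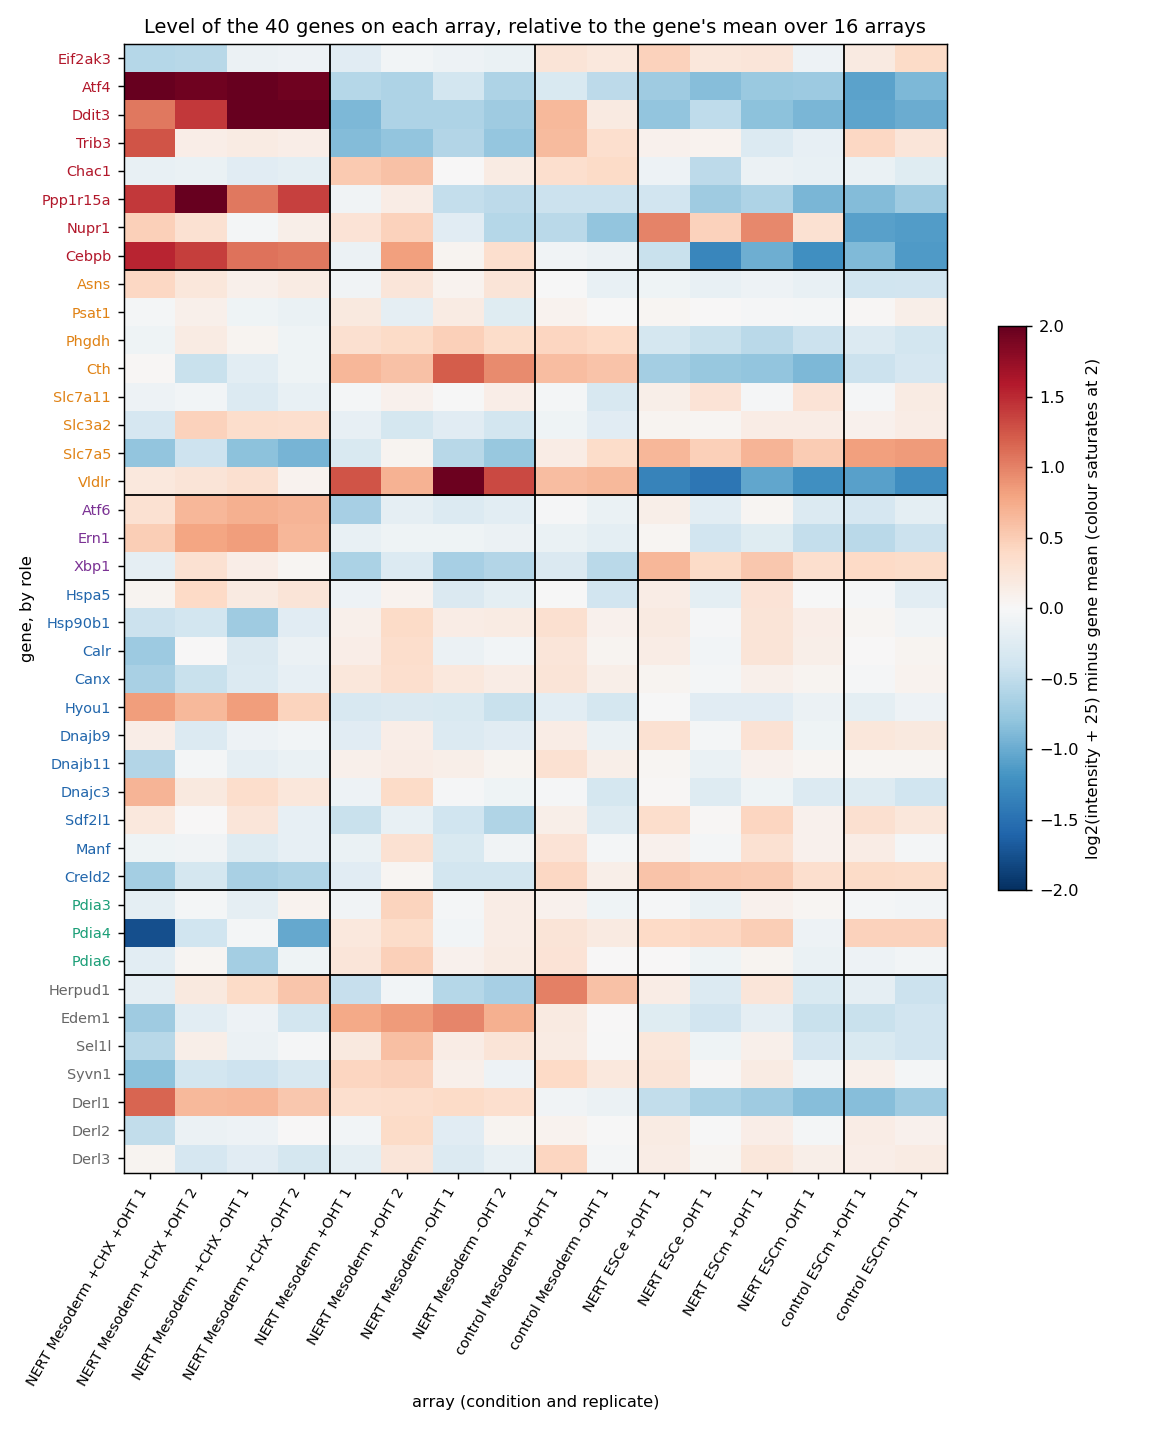
Levels of the 40 genes (rows, grouped by role: Atf4 axis in red, amino acid genes and Vldlr in orange, ER sensors and Xbp1 in purple, chaperones in blue, disulfide isomerases in green, degradation factors in grey) on each of the 16 arrays (columns), as log2(intensity + 25) minus the gene's mean over all arrays. The 4 CHX arrays at the left stand apart through Atf4, Ddit3 and Ppp1r15a, and most chaperone rows change little across the columns.

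Across the 12 conditions the typical range of the 40 genes was close to that of all genes. The highest condition mean was 2.16 times the lowest for the median member and 2.2 times for the median of the 12763 genes with a condition mean of 50 or more, and 21 of 40 members (52.5%) against 58.3% of all genes spanned 2-fold or more. Ddit3 had the widest span, 12.4-fold between NERT Mesoderm with CHX alone and control ESCm with OHT. Vldlr, a lipoprotein receptor induced through Atf4, spanned 11.5-fold and Atf4 8.78-fold, whereas Psat1, an enzyme of serine synthesis, spanned 1.17-fold.

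With CHX and without OHT, the transcription factors Ddit3 and Atf4 and the phosphatase subunit Ppp1r15a rose most, while of the 21 chaperones, isomerases and degradation factors 3 rose and 3 fell. One of the 3 rises was Hyou1, whose other probe sets fell. Of the 40 genes 10 rose and 5 fell, 24 were not called and Slc7a11 was too dim to be tested, and of all 12188 genes tested 33.8% were called (24.3% higher, 9.48% lower). With quantile normalization between arrays the split became 10 up and 8 down. The shares of all genes called on that scale are not given, so this split has no baseline. The median change of the members was -0.02 on the log2 scale, against 0.11 over all genes tested. In the presence of OHT, on 4 other arrays, 9 members rose and 9 fell, where 42.1% of all genes were called (31.0% higher, 11.1% lower). The rises in this comparison include Hyou1 and Derl1, whose probe sets went both ways. With quantile normalization 8 rose and 18 fell, again without the shares of all genes on that scale. That scaling moved the median of all probe sets in this comparison to -0.04, against 0.10 on the deposited scale. In both comparisons 7 members rose on the probe set used (Atf4, Ddit3, Ppp1r15a, Cebpb, Atf6, Ern1 and Hyou1), or 6 without Hyou1, where 21.9% of all genes did so, and 5 fell (Cth, Vldlr, Hsp90b1, Canx and Edem1), where 6.68% did.

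Without OHT 24.3% of all genes rose with CHX, and with OHT 31.0% rose and 11.1% fell. The largest rises of the members were in the Atf4 axis, where 4 of 8 genes rose without OHT and 5 rose and 1 fell with it. Atf4 itself, the transcription factor at its centre, had intensities of 5582 and 5281 with CHX, against 1042 and 877 in untreated NERT Mesoderm, a 5.66-fold difference of the means (log2 change 2.48 ± 0.15 SE, adjusted p = 5.86e-06). With OHT present it had 5804 and 5274 with CHX and 898 and 875 without (6.25-fold, log2 change 2.61 ± 0.15, adjusted p = 3.89e-06). The 4 CHX arrays lay within a narrow band far above the other 12 arrays of the series, on which Atf4 ranged between 631 and 1090. A second Atf4 probe set rose by 2.14 and 2.54, both called, and the first belongs to a class (suffix x) whose probes may also match other transcripts.

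Ddit3, the Chop transcription factor that Atf4 induces, had 1644 and 1334 with CHX, against 171 and 157 without it (9.06-fold, log2 change 2.99 ± 0.20, adjusted p = 9.34e-06). With OHT the values were 596 and 774 with CHX and 136 and 169.8 without (4.49-fold, log2 change 1.99 ± 0.20, adjusted p = 5.69e-05). No array with CHX overlapped an array without it, and both CHX arrays with OHT lay below both CHX arrays without OHT. Ppp1r15a (Gadd34), which guides the phosphatase that removes the eIF2alpha phosphate, had 1073 and 1342 with CHX, against 355 and 343 (log2 change 1.71 ± 0.23, adjusted p = 0.000398). With OHT it had 1383 and 2234, against 480.1 and 559 (log2 change 1.72 ± 0.23, adjusted p = 0.000258). The changes in both comparisons were thus of the same size, 3.46-fold and 3.48-fold.

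Cebpb, a partner of Atf4 on its target sites, had 762 and 745 with CHX, against 357 and 442, and with OHT 1032 and 938, against 316 and 629 (log2 changes 0.88 and 1.10, adjusted p = 0.0274 and 0.00799). The groups did not overlap within either comparison, but a second Cebpb probe set gave -0.23 and 0.00 and was not called. Of the 8 arrays, each CHX array was above its counterparts without CHX, and the second array with OHT alone (629) came nearest. Trib3, a pseudokinase induced by Atf4 and Ddit3 that feeds back on both, had 554 and 239 with CHX plus OHT, against 107 and 114 with OHT alone (log2 change 1.53 ± 0.29, adjusted p = 0.00225). The first of these arrays stood well above the other CHX arrays, which gave 244 and 240.1 without OHT, against 136 and 116 (log2 change 0.83, adjusted p = 0.0528). A second Trib3 probe set was called in both comparisons (0.47 and 0.89). On the probe set used, the change without OHT was called higher at a pseudocount of 5 or 1, with the replicate block and in the fit of all 16 arrays.

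Not all genes of the axis followed. Chac1, a glutathione-degrading enzyme and Atf4 target, had 177 and 179 with CHX plus OHT, against 296 and 309.9 with OHT (log2 change -0.69 ± 0.16, adjusted p = 0.00664). Without OHT the difference was -0.30 and did not pass the test (adjusted p = 0.176). Nupr1, a small stress-induced nuclear protein, and Eif2ak3 were not called with CHX in either comparison, with changes of 0.43 and 0.02 for Nupr1 and 0.01 and -0.42 for Eif2ak3. With OHT Eif2ak3 was called lower with quantile normalization and in the fit of all 16 arrays. Without OHT Nupr1 was called higher in that fit.

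**Figure D2:**
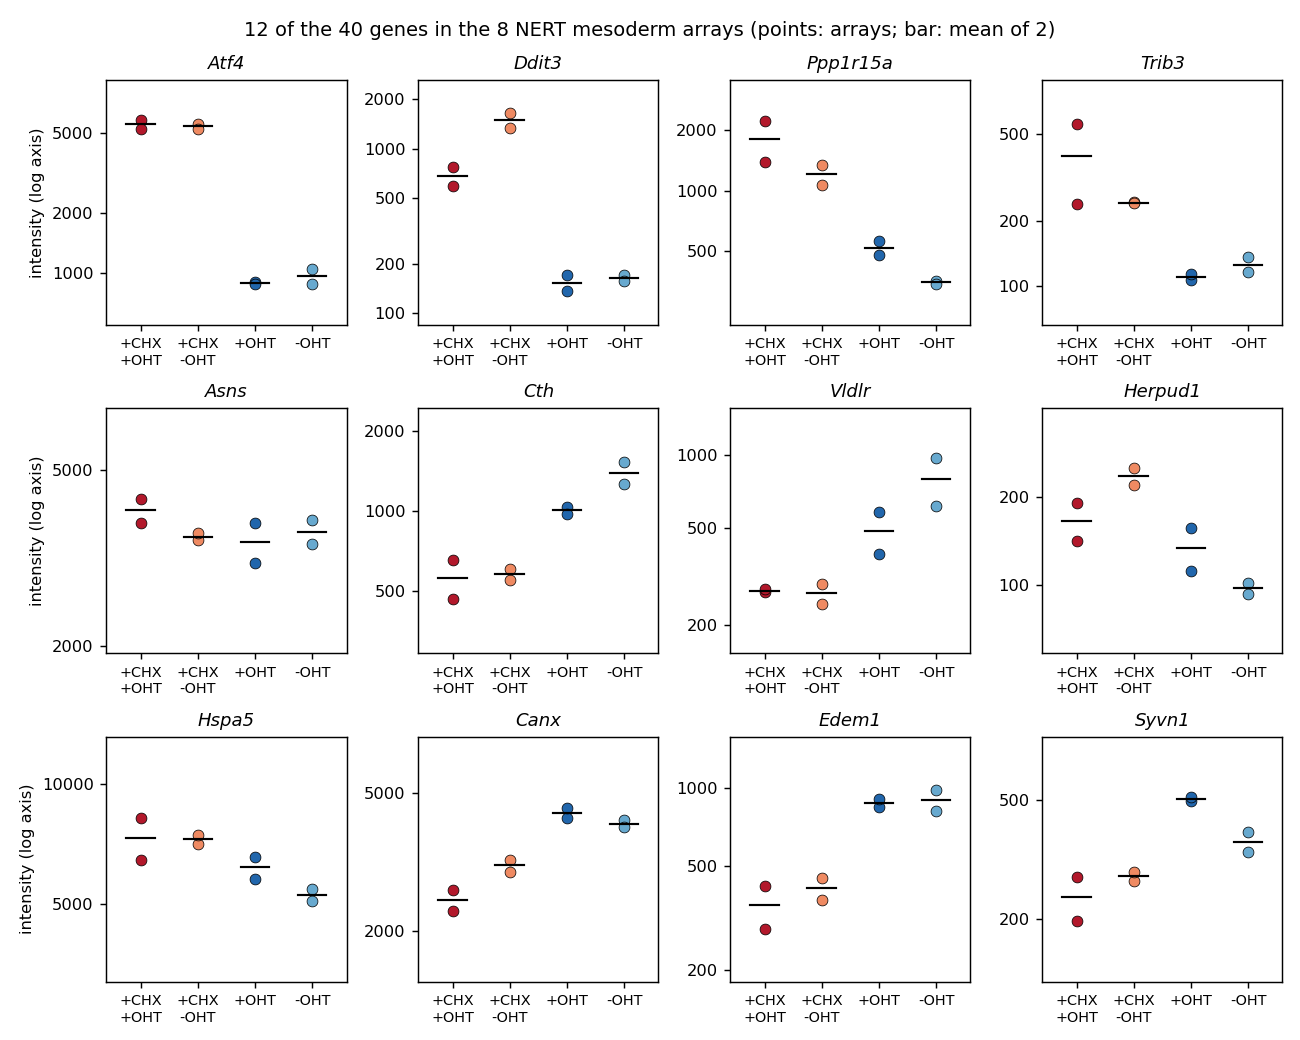
Intensities (log axis) of 12 of the 40 genes on the 8 NERT mesoderm arrays, as points, with the mean of the 2 arrays of each condition as a bar. Atf4, Ddit3 and Ppp1r15a are higher on every CHX array than on any array without CHX, Cth, Vldlr, Canx, Edem1 and Syvn1 are lower, and Asns overlaps between the conditions.

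Among the amino acid genes and Vldlr, most of which Atf4 is known to drive, none of the 7 tested was called higher in either comparison. Of all genes 24.3% rose without OHT and 31.0% with it. Cth and Vldlr fell in both comparisons, where 6.68% of all genes did. Asns, which makes asparagine and is the classical Atf4 target of the amino acid response, had 3458 and 3592 with CHX, against 3397 and 3839 without it, and 4301 and 3786 with CHX plus OHT, against 3075 and 3795 with OHT. The CHX arrays lay between the others without OHT and overlapped them with OHT, and the log2 changes of -0.03 and 0.24 were not called (adjusted p = 0.876 and 0.225). Cth, the enzyme that makes cysteine from cystathionine, had 552 and 606 with CHX, against 1522 and 1267 (log2 change -1.23 ± 0.19, adjusted p = 0.00109). With OHT it had 654 and 467, against 1037 and 977 (log2 change -0.84 ± 0.19, adjusted p = 0.00639). Vldlr had 296 and 246 with CHX, against 971 and 616 (log2 change -1.44, adjusted p = 0.00171), and with OHT 272 and 281, against 585 and 392 (log2 change -0.74, adjusted p = 0.0344). For both genes every CHX array was below every array without CHX. The Vldlr probe set also has the suffix x, and its call with OHT was lost with the mean of the gene's probe sets and without the filter on low values.

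The other members of the group were not called. Psat1 changed by -0.07 and 0.03, and the amino acid transporter subunit Slc7a5 by -0.22 and -0.48, none called. Slc7a5 was called lower with OHT with quantile normalization and in the fit of all 16 arrays. Its heavy chain Slc3a2 gave 0.64 without OHT (adjusted p = 0.0508) and 0.32 with OHT, where the 2 CHX arrays read 1553 and 2728. The change without OHT was called higher with the replicate block (adjusted p = 0.0377), in the fit of all 16 arrays (adjusted p = 0.0217) and with a group mean of 100 or more (adjusted p = 0.049). Phgdh, the first enzyme of serine synthesis, gave -0.44 and -0.31 and was not called, while its 3 other probe sets were called lower in both comparisons, by 0.60 to 0.80. It was called lower in both comparisons with quantile normalization and with the mean of its probe sets. Without OHT the replicate block, the fit of all 16 arrays and a group mean of 100 or more gave that call too. Slc7a11, the cystine transporter, read between 29.8 and 58.2 on all 16 arrays.

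Other genes of the amino acid response also moved both ways. Of 22 such genes 2 rose and 5 fell with CHX without OHT, where 24.3% of all genes rose and 9.48% fell, and 3 rose and 6 fell with OHT, where 31.0% rose and 11.1% fell. Atf3, a transcription factor of the same stress pathway, rose by 4.48 and 3.90 on the log2 scale, the largest changes in that list, and Cebpg, a dimer partner of Atf4, by 0.75 and 1.15. Slc1a4, a neutral amino acid transporter, rose by 0.75 with OHT and gave 0.08 without OHT, which was not called. The mitochondrial serine enzyme Shmt2 fell by 0.80 and 0.99, the proline synthesis enzyme Aldh18a1 by 0.71 and 0.67, and the amino acid transporters Slc6a9 and Slc38a2 by 0.71 and 0.61 without OHT and 1.02 and 0.44 with it. The autophagy receptor Sqstm1 fell by 0.68 without OHT and the branched-chain aminotransferase Bcat1 by 1.08 with OHT. Of 19 cytosolic aminoacyl-tRNA synthetases, many of which Atf4 induces, Kars fell without OHT (-0.82), and with OHT Vars, Sars and Kars fell (-1.08, -0.77 and -0.63) while Hars rose (0.58). Of 5 other eIF2alpha kinases and regulators none was called without OHT, and with OHT the kinases Eif2ak1 and Eif2ak2 fell (-0.63 and -0.55) and Eif2ak4 (Gcn2) rose (0.75). The shares of all genes given above hold for the synthetases and these regulators as well.

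The mRNAs of the sensors Atf6 and Ern1 rose in both comparisons and that of Xbp1 without OHT. Atf6, whose cleaved form is a transcription factor, had 212 and 208 with CHX, against 95.0 and 101 (log2 change 0.93 ± 0.20, adjusted p = 0.00581). With OHT it had 155 and 205, against 66.7 and 104 (log2 change 0.90, adjusted p = 0.00518). Ern1, the Ire1 kinase and RNase, had 279 and 244 with CHX, against 135 and 132, and with OHT 214 and 267, against 128 and 135 (log2 changes 0.86 and 0.76, adjusted p = 0.0041 and 0.00597). The groups did not overlap for either sensor, but the only other Ern1 probe set bright enough to test gave -0.36 and -0.29 and was not called. Xbp1, the factor spliced by Ern1, had 1746 and 1627 with CHX, against 992 and 1051 (log2 change 0.71, adjusted p = 0.019), and with OHT 1393 and 1967, against 1013 and 1300.0 (log2 change 0.52, adjusted p = 0.0567). The CHX arrays were the higher ones in both comparisons, and these probe sets were not used to tell spliced from unspliced Xbp1 mRNA. The change of Xbp1 with OHT was called higher with the mean of its probe sets, with the replicate block and in the fit of all 16 arrays.

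Of the 11 chaperones and cochaperones 2 rose and 2 fell without OHT (Hspa5 and Hyou1, against Hsp90b1 and Canx), and 1 rose and 3 fell with it (Hyou1, against Hsp90b1, Canx and Calr). Of all genes 24.3% rose and 9.48% fell without OHT, and 31.0% rose and 11.1% fell with it. No direction can be given for Hyou1, whose probe sets were called both ways, and 2 other Hspa5 probe sets gave -0.02 and 0.51 without OHT and were not called. For the first of these, 1 outlying array with OHT alone widened the spread of the fit. Hspa5 (BiP), the main ER chaperone and the usual readout of the unfolded protein response, had 7088 and 7448 with CHX, against 5102 and 5461 (1.38-fold, log2 change 0.46 ± 0.14, adjusted p = 0.028). With OHT the values were 6459 and 8238 with CHX and 5788 and 6584 without, which overlapped (log2 change 0.24, adjusted p = 0.194). Canx, the membrane lectin that retains unfolded glycoproteins, had 2969 and 3215 with CHX, against 4175 and 3977 (log2 change -0.40, adjusted p = 0.0446), and with OHT 2293 and 2636, against 4219 and 4529 (log2 change -0.82 ± 0.14, adjusted p = 0.000891). All CHX arrays were below all others for Canx. Hsp90b1 (Grp94), the ER member of the Hsp90 family, had 2337 and 3292 with CHX, against 4279.9 and 4324, and with OHT 2852 and 2984, against 4113 and 5004 (log2 changes -0.63 and -0.63, adjusted p = 0.0184 and 0.0145), and a second probe set fell by 1.31 and 1.26. Calr, the soluble counterpart of Canx, had 2156 and 3612 with CHX plus OHT, against 3913 and 4564 with OHT (log2 change -0.59, adjusted p = 0.0444), and gave -0.11 without OHT, which was not called. Without the first CHX plus OHT array the call was lost (log2 change -0.23, adjusted p = 0.258).

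Hyou1, a large chaperone that acts on Hspa5, gave opposite readings. The probe set with the highest mean had 1975 and 1512 with CHX, against 885 and 802 (log2 change 1.01, adjusted p = 0.00172), while the 2 other Hyou1 probe sets were called lower, by 0.91 and 0.71. With OHT the first rose by 1.05 and the others fell by 1.07 and 1.11, so that no direction can be given for this gene. The remaining 6 chaperones and cochaperones, Dnajb9, Dnajb11, Dnajc3, Sdf2l1, Manf and Creld2, were not called in either comparison, with log2 changes between -0.25 and 0.55 without OHT and between -0.44 and 0.41 with it. Sdf2l1 was called higher without OHT with the replicate block and in the fit of all 16 arrays. With OHT Dnajb11 and Creld2 were called lower in that fit and with quantile normalization.

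Of the 3 disulfide isomerases, which form and reshuffle disulfide bonds, Pdia3 and Pdia6 were not called, with changes between -0.51 and -0.11 over both comparisons. Pdia6 was called lower in both comparisons with quantile normalization and with the replicate block, and without OHT also in the fit of all 16 arrays. With OHT Pdia3 was called lower with quantile normalization. Pdia4 had 57.8 and 189.6 with CHX plus OHT, against 299 and 337 with OHT (log2 change -1.36 ± 0.40, adjusted p = 0.0204), and 248 and 114 with CHX alone, against 245 and 285 (log2 change -0.57, adjusted p = 0.301). Its CHX arrays differed widely from each other in both conditions, and the call was lost without the first CHX plus OHT array (log2 change -0.67). It was also lost with the mean of the gene's probe sets.

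In ER-associated degradation, Edem1, a lectin that directs misfolded glycoproteins to disposal, had 453 and 372 with CHX, against 985 and 814 (log2 change -1.08 ± 0.21, adjusted p = 0.00323). With OHT it had 289 and 421, against 846 and 905 (log2 change -1.27 ± 0.21, adjusted p = 0.000926). The groups did not overlap in either comparison, and a second Edem1 probe set fell by 0.99 and 1.09. Syvn1 (Hrd1), the ubiquitin ligase of the pathway, had 196 and 277 with CHX plus OHT, against 497 and 512 with OHT (log2 change -1.03 ± 0.19, adjusted p = 0.00188). Without OHT the change of -0.36 was not called (adjusted p = 0.178), while a second probe set was called lower in both comparisons (-0.73 and -1.17). With quantile normalization and with the mean of its probe sets Syvn1 was called lower without OHT too. Herpud1, an ER membrane protein that assembles the ligase complex and a target of Atf4 as well as of Atf6, rose without OHT. It had 219 and 251 with CHX, against 101 and 93.1 (log2 change 1.09 ± 0.20, adjusted p = 0.00249). With OHT it had 140.5 and 189.8, against 111 and 156, which overlapped (log2 change 0.26, adjusted p = 0.32). Derl1, a channel component, was called higher with OHT (0.57, adjusted p = 0.0275) but 2 of its other probe sets were called lower (-0.58 and -0.61), so no direction can be given. Sel1l, Derl2 and Derl3 were not called, with changes between -0.62 and 0.03. With OHT Sel1l was called lower with quantile normalization, with the replicate block and in the fit of all 16 arrays. No direction can be given for Derl2 either, since its second probe set was called higher (1.47 and 1.61), as was the mean of its probe sets (0.75 and 0.57), whereas with OHT the first was called lower with quantile normalization (-0.67), with the replicate block and in the fit of all 16 arrays.

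Of 44 other genes of ER folding, translocation and degradation, 2 rose and 11 fell with CHX without OHT, where 24.3% of all genes rose and 9.48% fell, and 7 rose and 14 fell with OHT, where 31.0% rose and 11.1% fell. Dad1 and Rpn2, subunits of the oligosaccharyltransferase, fell by 1.21 and 0.89 without OHT and 0.93 and 0.96 with it. The oxidase Ero1a fell by 1.16 and 0.85, the prolyl isomerase Ppib by 0.90 and 0.79, the translocon-associated subunit Ssr4 by 1.10 without OHT, and the oligosaccharyltransferase subunit Ddost and the lectin Edem2 by 1.07 and 0.92 with OHT. Creb3, an ER-bound transcription factor, rose most (0.99 and 1.19), and the translocon-associated subunit Ssr1 was the other gene that rose without OHT (0.45). With OHT Creb3 was followed by its relative Creb3l2 (0.66), the vesicle coat protein Sec24d (0.58) and the signal peptidase subunit Spcs2 (0.52).

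Several of these calls were lost when 1 array was left out. Those for Atf4, Ddit3, Ppp1r15a, Cth, Atf6, Ern1, Hyou1 and Edem1 in both comparisons, for Herpud1 and Vldlr without OHT and for Trib3, Chac1, Canx and Syvn1 with OHT held whichever of the 8 arrays was left out. Without OHT, the calls for Cebpb, Xbp1 and Hspa5 were lost when any of the 4 arrays compared was left out, with log2 changes of 0.74 to 1.03 for Cebpb, 0.66 to 0.76 for Xbp1 and 0.41 to 0.51 for Hspa5 over all arrays left out (adjusted p up to 0.164, 0.115 and 0.172). Hsp90b1 lost its call without either untreated array or the first CHX array (log2 change -0.87 to -0.38), and Canx without any of the 4 arrays compared or either array with OHT alone (log2 change -0.45 to -0.34, adjusted p up to 0.241). With OHT, Cebpb lost its call without the first array with OHT alone (0.63, adjusted p = 0.0601) and Hsp90b1 without the second (-0.49, adjusted p = 0.12). Vldlr lost it without the first array with OHT alone or either CHX plus OHT array (log2 change -1.02 to -0.47). Calr lost it without any array but the second CHX plus OHT array, and Pdia4 and Derl1 without either array with OHT alone or the first CHX plus OHT array (log2 change -2.05 to -0.67 and 0.31 to 0.83).

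**Figure D3:**
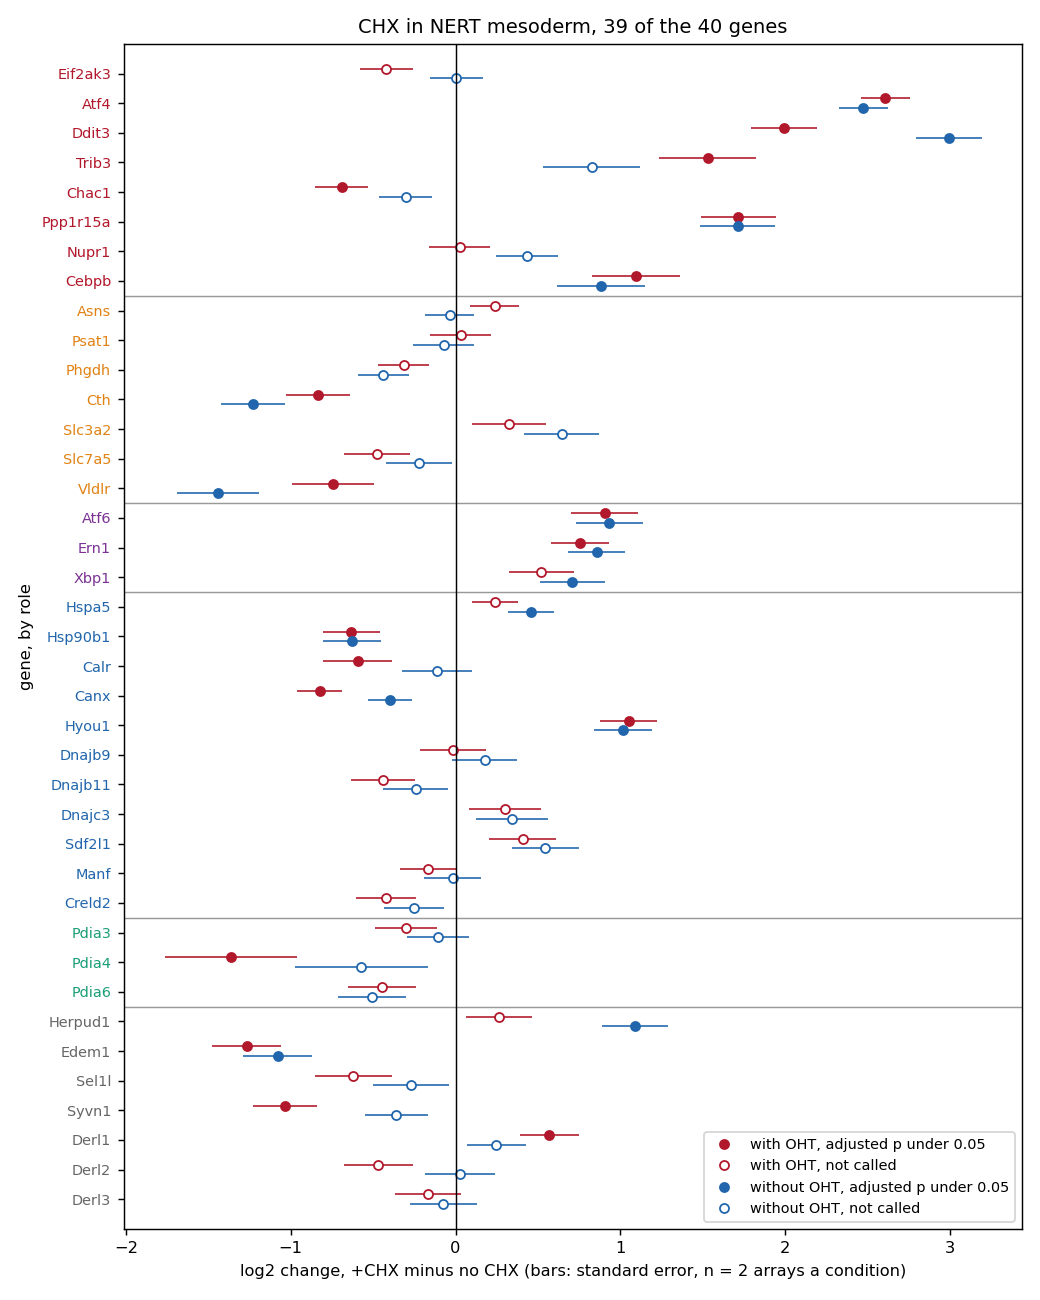
Log2 change with CHX (+CHX minus no CHX) of 39 of the 40 genes, with OHT in red and without OHT in blue, bars giving the standard error of the fit and filled points an adjusted p under 0.05. Atf4, Ddit3 and Ppp1r15a lie furthest to the right, and the downward calls are spread over Chac1, Cth, Vldlr, chaperones, isomerases and degradation factors.

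Short promoter stretches show which of these genes carry the recognition elements of the pathway at their start. The sequences are from RefSeq (build GRCm38.p6) and cover 250 bases before to 50 after the start of 34 of the 40 genes. The composite element for Atf4 with C/EBP partners, searched as TGATGNAA on both strands, was in the window of 7 members (Asns, Chac1, Herpud1, Nupr1, Slc7a11, Trib3 and Vldlr) and in 3.97% of the 32851 windows of all genes. The ER stress element (ERSE), searched as CCAAT and CCACG with any 9 bases between them on both strands, was in that of 9 (Calr, Canx, Creld2, Derl3, Dnajc3, Hsp90b1, Hspa5, Pdia6 and Syvn1) and in 0.119% of all windows. ERSE-II, ATTGG and CCACG with any 1 base between them, was in Herpud1 and Dnajb11 (0.0365% of all windows), and the unfolded protein response element TGACGTGG was in none of the 34 (0.676% of all windows). A hit is a match of letters in this window. Of either of the first 2 kinds, 5 members follow in the direction of the gene, with the match in capitals (a match on the other strand is printed as its reverse complement, as in Chac1, Vldlr, Nupr1, Herpud1 and Calr).
Asns (chr6:7693210-7693252, - strand): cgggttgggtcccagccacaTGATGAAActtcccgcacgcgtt
Chac1 (chr2:119351029-119351076, + strand): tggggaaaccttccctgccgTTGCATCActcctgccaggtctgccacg
Vldlr (chr19:27216800-27216847, + strand): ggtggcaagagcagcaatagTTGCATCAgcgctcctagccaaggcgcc
Nupr1 (chr7:126625553-126625600, - strand): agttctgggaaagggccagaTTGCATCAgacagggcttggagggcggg
Herpud1 (chr8:94386297-94386344, + strand): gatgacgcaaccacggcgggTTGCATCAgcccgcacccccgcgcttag
Hspa5 (chr2:34772005-34772063, + strand): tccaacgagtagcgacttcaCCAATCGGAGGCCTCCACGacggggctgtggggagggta
Canx (chr11:50325780-50325838, - strand): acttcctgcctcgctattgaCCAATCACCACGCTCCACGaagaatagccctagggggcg
Hsp90b1 (chr10:86705618-86705676, - strand): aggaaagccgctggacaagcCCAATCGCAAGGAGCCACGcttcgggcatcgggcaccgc
Calr (chr8:84847055-84847113, - strand): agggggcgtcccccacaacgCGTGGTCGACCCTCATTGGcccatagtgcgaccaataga
Syvn1 (chr19:6046512-6046570, + strand): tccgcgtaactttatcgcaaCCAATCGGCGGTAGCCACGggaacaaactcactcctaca

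The CHX calls of the genes with a match ran both ways, where 33.8% of all genes were called without OHT and 42.1% with it. Of the 7 with the Atf4 element, Herpud1 rose without OHT and Trib3 with OHT, Vldlr fell in both comparisons and Chac1 with OHT, Asns and Nupr1 were not called and Slc7a11 was not tested. Of the 9 with the ERSE, Hspa5 rose without OHT, Hsp90b1 and Canx fell in both comparisons, Calr and Syvn1 fell with OHT, and Creld2, Derl3, Dnajc3 and Pdia6 were not called in either.

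OHT, which switches on the Notch1 fusion protein, was the agent under study, and few of these genes were called for it. In NERT Mesoderm without CHX none of the 39 genes tested was called for OHT, where 1.13% of all genes were. In the limma fit 7 of the 39 had an unadjusted p under 0.05 (Nupr1, Ppp1r15a, Slc7a5, Chac1, Syvn1, Cth and Vldlr). The share of all genes under that unadjusted cutoff is not given, so this count has no baseline. In the presence of CHX the call was for Ddit3 alone, where 0.796% of all genes were called. It had 596 and 774 with OHT plus CHX, against 1644 and 1334 with CHX alone (log2 change -1.10 ± 0.20, adjusted p = 0.0389), and the groups did not overlap. This call was lost when any array but the second CHX plus OHT array was left out (adjusted p up to 0.397), and at a pseudocount of 5 or 1. The difference between the effects of OHT with and without CHX was not called for any member, where 0.0410% of all genes were called, Ddit3 included (adjusted p = 0.682). In NERT ESC and in control cells 7 and 1 members had an unadjusted p under 0.05, again without a share of all genes. No member was called for OHT in either, where 0.768% and 0% of all genes were called. Neither effect differed by a call from that in NERT Mesoderm for any member, where 0.0470% and 0.603% of all genes were called.

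Below the threshold, the ER genes leaned upward with OHT in most pairs of conditions. In pairs that share no array, the number of the 11 chaperones that were higher with OHT was 11 in NERT ESCe, 10 in NERT ESCm, 7 in control ESCm, 11 in control Mesoderm and 11 in NERT Mesoderm. Their median differences were 0.20, 0.17, 0.03, 0.29 and 0.20 on the log2 scale, in that order, against 0.08, 0.07, 0.00, 0.02 and -0.05 over all genes. Of all genes, 68.6%, 66.9%, 49.9%, 57.6% and 38.6% were higher with OHT in these pairs, in the same order. The control line, which lacks the fusion protein, was among these pairs. Hspa5 had 6936 with OHT in NERT ESCe, against 5459.9 without, 7571 against 6226 in NERT ESCm, 6118 against 5401 in control ESCm and 6225 against 4769 in control Mesoderm. In NERT Mesoderm it had 5788 and 6584 with OHT, against 5102 and 5461. In all of these the array or arrays with OHT were the higher ones. Over the 5 populations without CHX, 15 of the 40 members (37.5%) and 6.12% of all genes were higher with OHT in each. The 15 were Hspa5, Hsp90b1, Dnajb9, Dnajc3, Sdf2l1, Manf, Creld2, Pdia3, Herpud1, Sel1l, Syvn1, Derl2, Xbp1, Nupr1 and Cebpb. Of these 5 populations only NERT Mesoderm had replicate arrays. Genes read on the same arrays are not independent of each other, so the counts of genes describe these arrays and were not tested. In NERT Mesoderm the second array with OHT carried most of the lean, with a median of 0.36 over the chaperones against the mean without OHT, while the first gave 0.06. With CHX the lean was smaller, with 8 of 11 chaperones and 50.8% of all genes higher and a median of 0.07 over the chaperones.

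**Figure D4:**
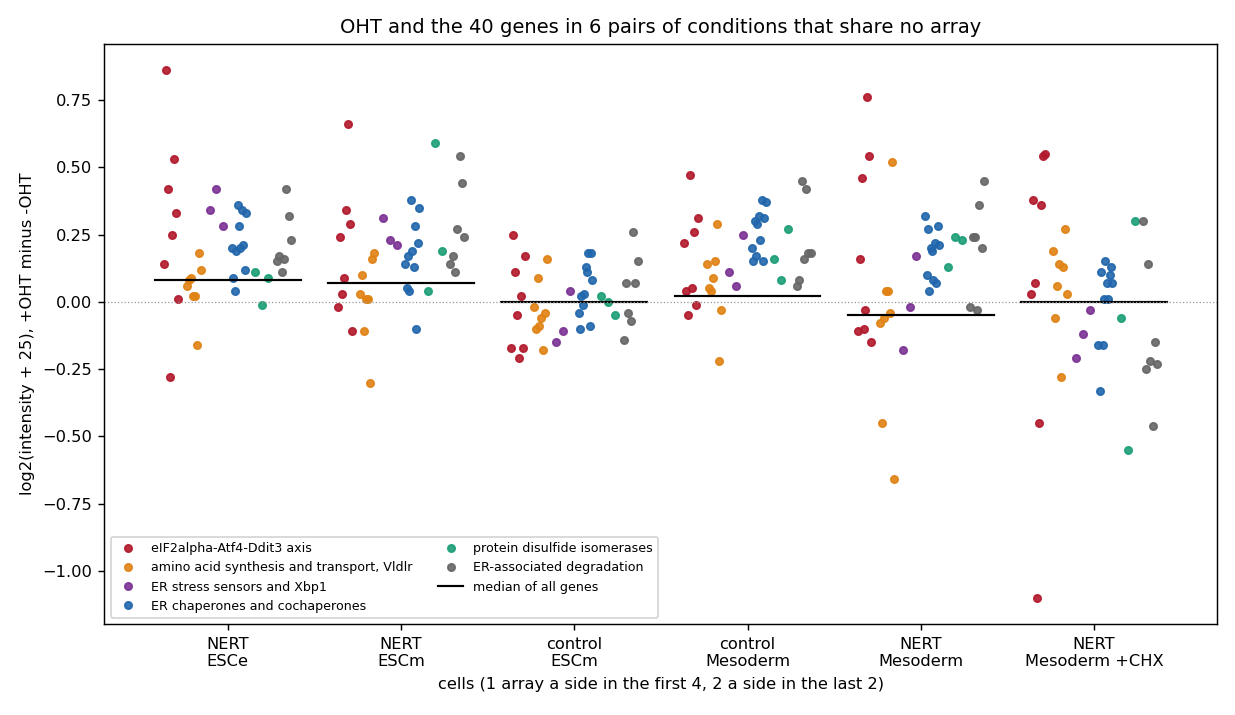
Difference of log2(intensity + 25) with OHT minus without OHT for each of the 40 genes (points, coloured by role) in 6 pairs of conditions, with the median of all genes as a black line. The chaperones (blue) lie above 0 in NERT ESCe, control Mesoderm and NERT Mesoderm, and the lowest point is Ddit3 in NERT Mesoderm with CHX.

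Nupr1 had the largest upward difference with OHT of the 40 genes in NERT ESCm and NERT Mesoderm. It had 503 with OHT in NERT ESCe, against 341 without, and 494 in NERT ESCm, against 304. In NERT Mesoderm it had 297 and 342 with OHT, against 204 and 154 without (0.76 ± 0.19, adjusted p = 0.116). Every NERT array with OHT was above its counterpart, but the gene passed the test only when the mesoderm contrast was taken from the fit of all 16 arrays. In control cells the values were 99.9 against 98.1 in ESCm and 158 against 128 in Mesoderm.

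Between Mesoderm and ESC the lipoprotein receptor Vldlr, the amino acid gene Cth and the transcription factor Cebpb rose in both lines, and Xbp1 and the transporter Slc7a5 fell. The Mesoderm and ESC cultures also differed in basal medium, serum, added amino acids and coating, so cell type and culture cannot be told apart. In the NERT line without OHT 7 members were higher and 5 lower in Mesoderm than in ESC (ESCe and ESCm together), where 40.5% of all genes were called (27.8% higher, 12.7% lower). With quantile normalization the split was 6 up and 8 down, without the shares of all genes on that scale. In the control line, over 2 arrays each with and without OHT, 9 were higher and 2 lower, where 23.3% of all genes were called (14.9% higher, 8.36% lower). The 2 lines share no array, and 6 members were called higher in both (Vldlr, Cth, Cebpb, Derl1, Phgdh and Chac1), as 13.5% of all genes were, and Slc7a5 and Xbp1 were called lower in both, as 6.39% were. Leaving out any of the 4 control arrays left 4 or 5 of the 11 calls of the control line, without Chac1, Cebpb, Slc7a5, Xbp1 and Derl1 among them. In the NERT line the call for Chac1 was lost without any of the 4 arrays compared (log2 change 0.23 to 0.62, adjusted p up to 0.478), with quantile normalization and with the 12 conditions as groups. That for Sdf2l1 was lost without either ESC array or the second Mesoderm array and with the 12 conditions as groups, and that for Nupr1 without the ESCe array.

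Vldlr had 971 and 616 in NERT Mesoderm, against 68.9 in ESCe and 85.0 in ESCm (10.3-fold, log2 change 2.98 ± 0.21, adjusted p = 6.69e-07). In the control line it had 369.9 and 377 in Mesoderm, against 96.0 and 83.0 in ESCm (log2 change 1.80 ± 0.21, adjusted p = 9.73e-05). Cth had 1522 and 1267 in NERT Mesoderm, against 370.5 in ESCe and 335 in ESCm (log2 change 1.91, adjusted p = 2.37e-06), and rose by 0.98 in the control line. Both genes were lower with CHX, and the CHX comparison without OHT uses the same NERT Mesoderm arrays. Phgdh rose by 0.85 and 0.74, Cebpb by 1.46 and 0.90, Derl1 by 1.10 and 0.68, and Chac1 by 0.43 and 0.54 in the NERT and control lines, but the second Cebpb probe set gave 0.06 and 0.39 and was not called. Edem1 rose by 1.25 in the NERT line, where it had 985 and 814 in Mesoderm, against 368 in ESCe and 354 in ESCm, and gave 0.51 in the control line, which was not called, while a second probe set was called in both lines (0.90 and 0.73).

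Xbp1 was the clearest of the lower members, with 992 and 1051 in NERT Mesoderm, against 2077 in ESCe and 1994 in ESCm (log2 change -0.98 ± 0.17, adjusted p = 0.00055). In the control line it had 1288 and 1076 in Mesoderm, against 2091 and 2037 in ESCm (log2 change -0.80). All 4 Xbp1 probe sets were called lower in both lines. Slc7a5 fell by 1.15 and 0.58 in the NERT and control lines. Creld2, an ER stress-induced cochaperone, fell by 0.80, Sdf2l1, a cofactor of Hspa5, by 0.55 and Nupr1 by 0.78 in the NERT line, with -0.11, -0.35 and 0.44 in the control line, not called. The main chaperone Hspa5 had 5102 and 5461 in NERT Mesoderm, against 5459.9 and 6226 in ESC, and the change of -0.14 was not called (adjusted p = 0.384). The other 8 chaperones and the 3 isomerases were not called in either line, and neither was Hspa5 in the control line (-0.08).

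In the control line Ddit3, Herpud1 and Atf4 were also higher in Mesoderm. Ddit3 had 446 and 314 in control Mesoderm, against 119.6 and 125 in control ESCm (log2 change 1.44 ± 0.19, adjusted p = 0.000188). Herpud1 had 352 and 257, against 141 and 114 (log2 change 1.10 ± 0.17, adjusted p = 0.000645), and Atf4 rose by 0.57 (adjusted p = 0.00988). For Ddit3 and Herpud1 both control Mesoderm arrays were above every ESC array of the series. A second Herpud1 probe set was also called higher (0.93), whereas a second, dimmer Ddit3 probe set gave 0.41 and was not called. In the NERT line the changes were 0.05 for Ddit3, -0.33 for Herpud1 and 0.30 for Atf4, none called. The difference between the lines was called for Herpud1 (-1.43 ± 0.24, adjusted p = 0.0112), Ddit3 (-1.39 ± 0.27, adjusted p = 0.023) and Nupr1 (-1.22 ± 0.22, adjusted p = 0.017), NERT minus control, where 2.09% of all genes were called. It was called for no member when the 12 conditions were fitted as separate groups or when the ESCe or ESCm array without OHT of the NERT line or any of the 4 control arrays was left out (log2 change -1.52 to -1.35 for Herpud1, -1.66 to -1.13 for Ddit3 and -1.39 to -1.04 for Nupr1 over all arrays left out).

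**Figure D5:**
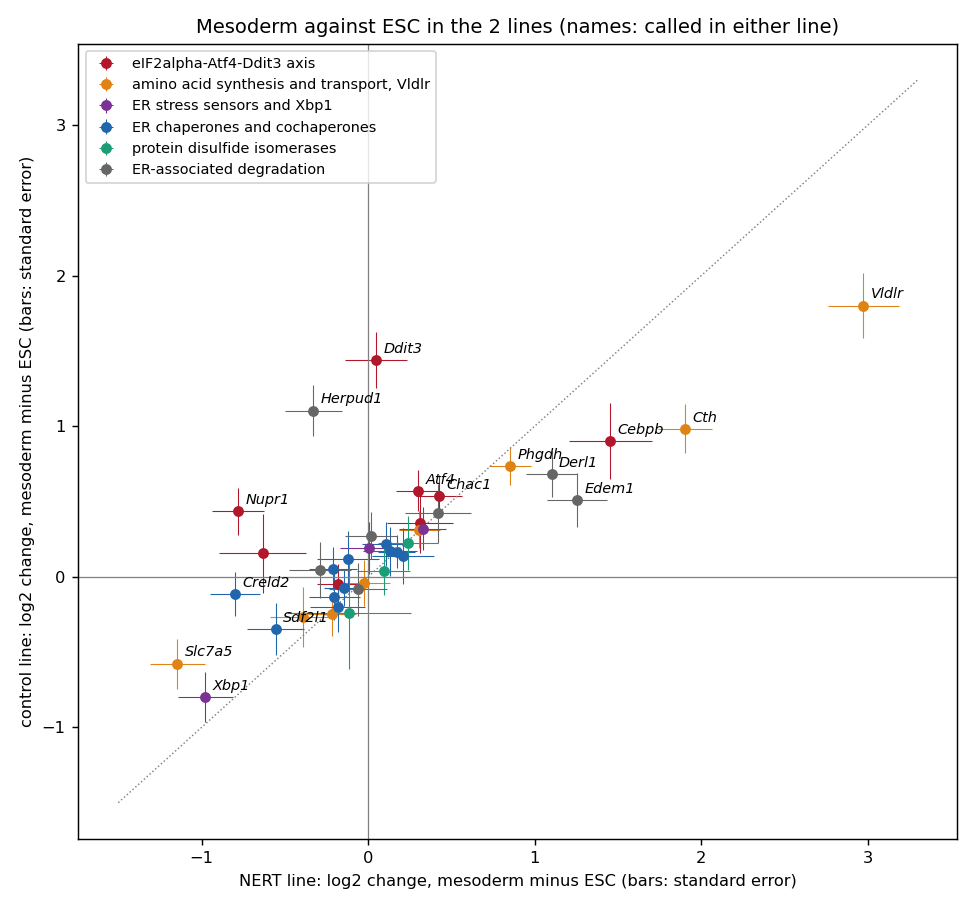
Log2 change of the 40 genes in Mesoderm minus ESC in the NERT line (x axis) and in the control line (y axis), with standard errors as bars and equal changes along the dotted line. Vldlr, Cth, Cebpb, Derl1 and Phgdh lie at the upper right, Xbp1 and Slc7a5 at the lower left, and Ddit3 and Herpud1 lie high on the control axis with NERT changes that were not called.

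Within a cell type few members differed between the lines. In Mesoderm without OHT 5 members differed between NERT and control cells, where 7.55% of all genes were called, 2 higher and 3 lower in NERT. With quantile normalization 2 were higher and 5 lower, without the shares of all genes on that scale. Herpud1 had 101 and 93.1 in NERT Mesoderm, against 257 on the control array without OHT (control level as fitted over both OHT states, log2 change -1.25 ± 0.19, adjusted p = 0.00283). Ddit3 was lower by 0.97 and Slc7a5 by 0.97, and Vldlr and Edem1 were higher by 1.04 and 0.77, though second probe sets of Ddit3 and Edem1 gave -0.26 and 0.08 and were not called. None of these 5 calls held without the control Mesoderm array without OHT, and they share arrays with the comparisons of Mesoderm and ESC. The summed mesoderm markers were 2675 to 3434 on NERT Mesoderm arrays, against 1348 to 1399 on control Mesoderm arrays, and the pluripotency markers 8106 to 8570, against 13540 to 13720. The part of these marker differences in the line differences was not tested. In ESCm Nupr1 alone differed, where 0.337% of all genes were called, with 304 in NERT ESCm, against 98.1 in control ESCm (as fitted over both OHT states, log2 change 1.51 ± 0.19, adjusted p = 0.00829). The call was lost without either of these 2 arrays (adjusted p up to 0.582). The summed endoderm markers were 382 to 405 in NERT ESCm, against 999 to 1001 in control ESCm, with Cubn, Sox17 and Gata6 called lower, and their part was not tested. Between ESCe and ESCm, which were in their media for 4 h only, no member was called, and no gene of the whole set was.

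Between Mesoderm and ESC other genes of the pathway were called in both directions. In the NERT line 16 of the 44 other ER genes were higher in Mesoderm and 2 lower, led by Ero1a (2.04), the translocation factor Tram1 (1.21), the lectin Erlec1 (1.11) and Creb3l2 (0.91), where 27.8% of all genes were higher and 12.7% lower. In the control line 6 were higher and 1 lower, where 14.9% of all genes were higher and 8.36% lower. Ssr2 (-0.64), a translocon-associated subunit, and Sec31a (-0.41), a coat protein of ER exit vesicles, were the 2 lower ones in the NERT line. Of the 22 amino acid response genes 5 were higher and 7 lower in the NERT line, against the same shares of all genes as for the ER genes. Ddit4, an inhibitor of mTORC1, and Slc1a4 were highest (3.13 and 2.81), followed by Atf3 (1.05) and Sqstm1 (0.77). Bcat1 (-1.48), the cationic amino acid transporters Slc7a3 (-1.05) and Slc7a1 (-0.91) and the serine enzyme Psph (-0.70) were lower. Among the synthetases Qars was higher (0.32) and Aars and Wars lower (-0.57 and -0.37), and among the kinases and regulators Eif2ak4 and the Gcn2 inhibitor Impact were higher (1.23 and 0.66). For these lists and the amino acid genes only the NERT line is given, against the same shares of all genes.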

How the data were processed

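RNA of 16 samples was hybridised to 1-colour Affymetrix Mouse Genome 430 2.0 arrays. The authors deposited linear model-based intensity values for 45037 probe sets, which they made with dChip after invariant-set normalization. Detection calls were not used, and 0 columns were left without a sample. Samples were grouped by the labels. Of the probe sets, 34945 name 1 gene and give 18193 genes, and the 40 genes had 95 probe sets. Members and gene lists were chosen with earlier results of these data known.

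Values were taken as log2(intensity + 25), and probe sets with a group mean of 50 or more were tested with limma (version 3.58.1, R 4.3.3), using lmFit and eBayes with a trend. P-values were two-sided and adjusted by Benjamini-Hochberg over all probe sets of a fit, also for a gene. The effects of CHX, and of OHT in NERT Mesoderm, were fitted on the 8 NERT Mesoderm arrays (23971 probe sets, 4 residual degrees of freedom). The other comparisons used the 16 arrays (25847 probe sets, 6 residual degrees of freedom), in which conditions with 1 array borrow the spread of the others. The number of arrays limits the precision. The scripts were tested on simulated data.

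Every called member was named, with values per array for the leading ones, together with Atf4, Ddit3, Hspa5 and Xbp1, the 4 largest called changes each way of each further pathway list, and every marker gene. Alternatives were pseudocounts of 5 and 1, other filters, quantile normalization, the mean of a gene's probe sets, a replicate block, other groupings, the fold and difference criterion of the study and each array left out.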

Additional observations from a re-analysis of the deposited data

Results flagged for a closer look

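The change between Mesoderm and ESC differed between the lines, by the test of the difference itself, for 3 genes. The difference, NERT minus control, was -1.39 for Ddit3, -1.22 for Nupr1 and -1.43 for Herpud1 on the log2 scale. All 3 calls were lost with the 12 conditions as groups, without any control array and without either NERT ESC array lacking OHT. That for Ddit3 was also lost with the mean of its probe sets. The NERT side used ESCe and ESCm without OHT, and the control side ESCm in both OHT states.

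A second probe set of Hspa5, outside the comparisons, read 18876 on the second NERT Mesoderm array with OHT, the highest value of that array, and between 2309 and 3696 (median 2998) on the other 15 arrays.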

How the results depend on the processing

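With the fold criterion of the study (2-fold or more and a difference over 50), 9 members passed with CHX without OHT, 10 with OHT, 6 in Mesoderm against ESC for NERT cells and 4 for control cells. The counts in this section show how far the calls depend on the settings. They stand without the shares of all genes under the same settings, so they have no baseline. For OHT in Mesoderm without CHX 1 member (Nupr1) was called in the fit of all 16 arrays. With CHX 0 were called at a pseudocount of 5 or 1, without a filter or with the mean of a gene's probe sets. With 12 conditions as groups, 0 members differed between the lines in the change between Mesoderm and ESC, 1 in Mesoderm and 0 in ESCm. With arrays left out in turn, these counts were 0 to 2 for OHT with CHX, 4 to 14 for Mesoderm against ESC in the control line, 0 to 6 for the difference between the lines, 0 to 9 in Mesoderm (9 without either CHX plus OHT array) and 0 to 1 in ESCm. With CHX they were 10 to 19 without OHT and 13 to 23 with OHT.

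With the mean of a gene's probe sets the sign turned, among called members, for Hyou1 without OHT (-0.203) and with OHT (-0.377) and for Derl1 with OHT (-0.313), since their probe sets disagreed. Derl2, not called on the probe set used, was called higher in both CHX comparisons (0.75 and 0.57) with that mean, and with OHT lower (-0.67) with quantile normalization. The replicate block gave 20 calls (13 higher, 7 lower) with CHX without OHT and 22 (10 higher, 12 lower) with OHT, and moved no other count of the NERT Mesoderm arrays. These calls, too, are given without a share of all genes. Deviations of same-numbered arrays correlated between 0.01 and 0.51, so the numbers were not taken to pair the arrays.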
